A study of Mus musculus with 35 samples.

Results

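The 10 genes described here, Gata1, Gata2, Klf1, Tal1, Zfpm1, Nfe2, Gfi1b, Gfi1, Spi1 and Cebpa, encode transcription factors of the erythroid, megakaryocyte and myeloid lineages. They were chosen by name, and all 10 were found among the 19138 genes with counts. Their mRNA was measured by RNA-seq in 35 libraries of mouse long-term haematopoietic stem cells (LT-HSCs), each made from 1000 sorted cells. Every mouse carried SclCre, a Cre recombinase transgene named for Scl, an older name of Tal1. Which Scl sequence drives it is not given in the sources used here. The groups combined 3 states of Ezh2, the histone H3 lysine 27 methyltransferase of Polycomb complex 2, with or without JAK2V617F, the activated kinase of myeloproliferative neoplasms. Control libraries (n = 4) had SclCre with Ezh2 +/+. Ezh2-het libraries (n = 7) had SclCre with Ezh2 +/-, and Ezh2-null libraries (n = 4) had SclCre with Ezh2 -/-. JAK2-VF (n = 6), JAK2-VF Ezh2-het (n = 8) and JAK2-VF Ezh2-null (n = 6) libraries added JAK2V617F to the same 3 Ezh2 genotypes. No label names the animal behind a library, so p-values measure only the spread between these libraries, which may be technical. The labels give an experimental batch (14 libraries in batch 1 and 21 in batch 2) and a sex (20 female and 15 male). All 4 controls were female, and in batch 2 all 4 JAK2-VF libraries were male.

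Total counts ranged from 13.6 M to 48.6 M per library, with medians of 22.6 M in batch 1 and 32.3 M in batch 2. Ezh2 was checked first, through a part of the gene that the files count on its own. That part took 6.02% to 8.72% of the Ezh2 counts in control libraries, 0% to 0.478% in Ezh2-null libraries and 0% in every JAK2-VF Ezh2-null library. Of the Ezh2-het libraries, batch 1 replicate 3 had 0 counts there and batch 1 replicate 1, labelled male, had 394 CPM (counts per M counts of the library) of Xist. The results were therefore also computed without these 2 libraries. Over all Ezh2-het libraries the part took 0% to 9.50%, and over JAK2-VF Ezh2-het libraries 4.08% to 8.495%. Ezh2-het batch 2 replicates 1 and 3 were also low, at 1.74% and 1.77%, and were not among the 2 left out. The mean of log2(CPM + 1) over 17 stem cell and early progenitor genes lay between 6.29 and 6.96 in all libraries. Over 25 neutrophil and monocyte genes the same mean varied far more, from 2.58 to 7.71. Summed levels ranged from 1113 to 20380 CPM for these genes and from 3177 to 6583 CPM for the stem cell and early progenitor genes. Fewer cells of a type and less RNA per cell cannot be told apart in these bulk samples.

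Commitment in the blood system is set by a small network of such factors. GATA2 maintains stem and progenitor cells and is replaced on chromatin by GATA1 as erythroid cells and megakaryocytes form. GATA1 works with its cofactor FOG1 (encoded by Zfpm1) and in a complex of TAL1, LMO2, LDB1 and the corepressor ETO2 (encoded by Cbfa2t3). KLF1 drives globin and red cell membrane genes, NFE2 platelet genes, and GFI1B is a repressor needed in both lineages, while PU.1 (encoded by Spi1), C/EBPα and GFI1 direct monocytes and neutrophils.

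Promoter sequence was read from RefSeq tables of build GRCm38.p6 for 8 of the 10 genes, with 11 start sites between them. Nfe2 and Spi1 were not matched. The 250 bases before the start are shown for the 3 genes called as changed in any comparison (Gata1, Tal1, Zfpm1) and for Klf1 and Gfi1b, the 2 genes whose levels followed Gata1 most closely among libraries of like genotype, batch and sex. Capitals mark AGATAA or TGATAA, the core sites of GATA factors, searched on both strands. Each sequence is written 5′ to 3′ on the strand of its gene.
Gata1, chrX:7967911-7968160, minus strand: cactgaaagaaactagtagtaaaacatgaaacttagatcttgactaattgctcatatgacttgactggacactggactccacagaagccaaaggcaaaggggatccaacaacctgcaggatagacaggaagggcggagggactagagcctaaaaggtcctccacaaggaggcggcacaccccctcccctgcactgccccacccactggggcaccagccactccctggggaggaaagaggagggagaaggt
Klf1, chr8:84901732-84901981, plus strand: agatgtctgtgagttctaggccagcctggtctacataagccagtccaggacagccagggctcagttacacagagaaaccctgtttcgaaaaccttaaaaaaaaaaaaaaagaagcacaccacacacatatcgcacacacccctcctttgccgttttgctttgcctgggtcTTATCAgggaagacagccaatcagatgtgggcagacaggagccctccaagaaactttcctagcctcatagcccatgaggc
Gfi1b, chr2:28621983-28622232, minus strand: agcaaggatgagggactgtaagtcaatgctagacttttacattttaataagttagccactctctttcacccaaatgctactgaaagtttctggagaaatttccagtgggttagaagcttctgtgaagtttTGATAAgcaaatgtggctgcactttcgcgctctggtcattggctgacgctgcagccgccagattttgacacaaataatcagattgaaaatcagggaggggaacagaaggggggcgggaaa
Tal1, chr4:115056176-115056425, plus strand: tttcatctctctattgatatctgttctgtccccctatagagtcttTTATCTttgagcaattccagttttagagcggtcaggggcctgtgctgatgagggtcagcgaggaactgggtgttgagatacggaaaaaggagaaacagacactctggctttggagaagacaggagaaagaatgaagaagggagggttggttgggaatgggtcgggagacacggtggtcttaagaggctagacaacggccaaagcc
Zfpm1, chr8:122281891-122282140, plus strand: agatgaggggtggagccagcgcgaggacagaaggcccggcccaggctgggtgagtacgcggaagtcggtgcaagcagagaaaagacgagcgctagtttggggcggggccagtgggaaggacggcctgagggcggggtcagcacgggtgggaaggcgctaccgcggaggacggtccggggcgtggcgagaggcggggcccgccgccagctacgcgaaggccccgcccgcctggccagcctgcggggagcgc
One of the 2 core sites was present in 3 of the 11 windows (Klf1, Gfi1b and the first of the 2 Tal1 starts), against 16.6% of 32851 windows of this length. The first base of the match lay at -80 in Klf1, -120 in Gfi1b and -205 in Tal1, counted from the start. The Gata1 window held neither core site; it had 1 E-box (CANNTG, the site of TAL1 and other helix-loop-helix factors) at -198 and 1 GAGGAA, a core of PU.1 sites, at -22. These are present in 66.2% and 23.3% of all windows. Klf1 had 1 E-box at -59, and Gfi1b had E-boxes at -180 and -113 and an AAATCA, the core of sites bound by the GFI1 family, at -34 (12.4% of windows). The windows also differed in CpG content. Zfpm1 held 28 CpG and the 2 Gata2 windows 22 and 24, against 2 in Gata1, 3 in Klf1 and a median of 6 over all windows. A match of these letters is a description of the window and says nothing of binding in these cells.

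Levels were compared between genes as CPM per kilobase, using the gene lengths in the files (1333 to 4161 bases). Over the 35 libraries Nfe2 was highest, at 235 ± 59.6 CPM per kb (SD), followed by Gata2 at 139 ± 27.98, Gfi1b at 95.6 ± 23.3 and Spi1 at 52.2 ± 21.04. Gata1 averaged 23.9 ± 17.5 and Tal1 12.5 ± 3.12 CPM per kb. Klf1 stood at 4.20 ± 3.03, Zfpm1 at 2.38 ± 0.879, Gfi1 at 0.867 ± 0.582 and Cebpa at 0.804 ± 0.694 CPM per kb. The upper part of this order held in nearly every library: Nfe2 exceeded Gata2 in 34 of 35, Gata2 exceeded Gfi1b in 31 and Gfi1b exceeded Spi1 in 34. Lower down, neighbours changed places: Gata1 was above Tal1 in 23 libraries, Klf1 above Zfpm1 in 25 and Gfi1 above Cebpa in 20. Cebpa had 0 counts in 2 libraries, Ezh2-het batch 2 replicate 2 and Ezh2-null batch 1 replicate 1, and the lowest Gfi1 count was 1.

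**Figure D1:**
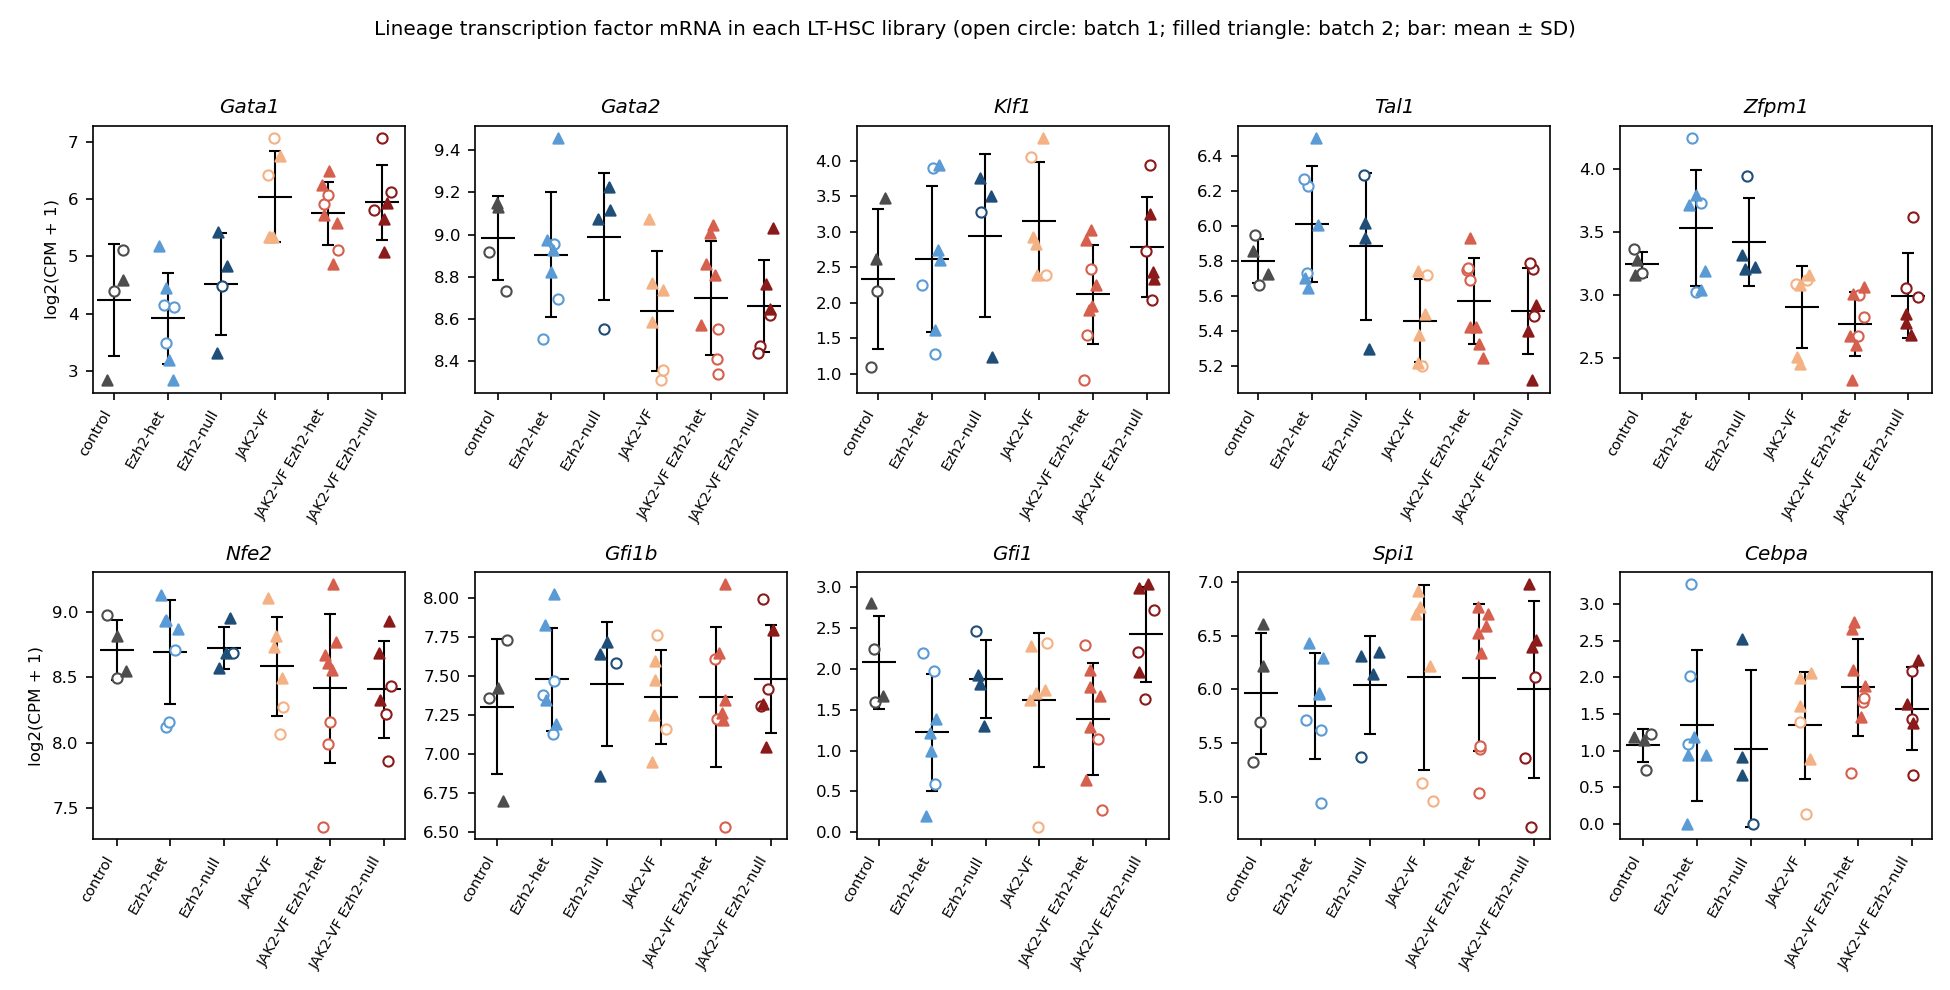
Level of each of the 10 genes in every library, as log2(CPM + 1), by genotype group. Open circles are batch 1 libraries, filled triangles batch 2 libraries, and bars the mean ± SD of the group; Gata1 stands higher in the 3 JAK2-VF groups, and Spi1 separates by batch within every group.

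Gata1 was the gene whose level differed most between genotypes. Control libraries had 20.2, 33.5, 6.14 and 23.03 CPM, Ezh2-null libraries 21.3, 42.2, 27.7 and 8.97 CPM, and the 7 Ezh2-het libraries 6.16 to 35.3 CPM with a median of 16.3. With JAK2V617F the range was 39.5 to 133 CPM (median 62.4) with intact Ezh2, 28.1 to 88.6 CPM (median 55.7) in JAK2-VF Ezh2-het and 32.6 to 134 CPM (median 57.9) in JAK2-VF Ezh2-null libraries. Of the 20 libraries with JAK2V617F, 14 lay above every one of the 15 libraries without it (42.2 CPM).

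In JAK2-VF against control cells Gata1 rose from 20.7 ± 11.3 CPM (SD, n = 4) to 74.0 ± 40.7 CPM (n = 6), and all 6 libraries exceeded every control. The edgeR estimate, with batch and sex as terms, was a log2 change of 2.18 ± 0.50 (SE), or 4.54-fold (adjusted p = 0.00854). Over all genes tested, 3.49% were higher in JAK2-VF with no overlap between the groups. It was the only gene of the 10 called at an adjusted p under 0.05, where 4.22% of all genes tested were called. The change was as large within each batch, 2.02 in batch 1 alone and 2.48 in batch 2 alone, but neither of these smaller fits called it (edgeR adjusted p = 0.0888 and 0.339). A fit of these 2 groups only gave 2.02 (edgeR adjusted p = 0.0916). The 4 male JAK2-VF libraries of batch 2 had 39.6, 39.5, 39.5 and 107 CPM, the 2 female ones of batch 1 133 and 85.2 CPM.

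In JAK2-VF Ezh2-het against Ezh2-het cells Gata1 rose from 16.3 ± 9.89 CPM (n = 7) to 56.3 ± 20.4 CPM (n = 8). The log2 change was 1.84 ± 0.37 (edgeR adjusted p = 0.00113). Of the 8 libraries, 6 exceeded every Ezh2-het library; the other two lay at 28.1 and 33.7 CPM, below the highest Ezh2-het value of 35.3. In this comparison 3 of the 10 genes were called, where 9.05% of all genes tested were called. Of the 3, 1 was higher, against 4.88% of all genes, and 2 were lower, against 4.18%. Leaving out the 2 doubted libraries together ended none of the 3 calls. The 2 lower calls, of Tal1 and Zfpm1, were each lost without 1 library, as given below. In JAK2-VF Ezh2-null against Ezh2-null cells the means were 66.7 ± 34.99 (n = 6) and 25.03 ± 13.8 CPM (n = 4), and 5 of the 6 libraries exceeded every Ezh2-null library. The log2 difference of 1.09 ± 0.47 did not pass the test (edgeR adjusted p = 0.190). None of the 10 genes passed it there, where edgeR called 4.84% of all genes tested. The DESeq2 Wald test called 1, Tal1, and its count over all genes is given at the end. In edgeR 4 of the 10 had an unadjusted p under 0.05. The share of all genes at that unadjusted threshold is not given, here or for later comparisons, so such counts cannot be judged against it. Whether the JAK2V617F difference in Gata1 depended on Ezh2 was tested as an interaction. The log2 interaction was -1.09 ± 0.68 for Ezh2 loss (edgeR adjusted p = 0.983) and -0.34 ± 0.58 for heterozygosity (edgeR adjusted p = 1.0).

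**Figure D2:**
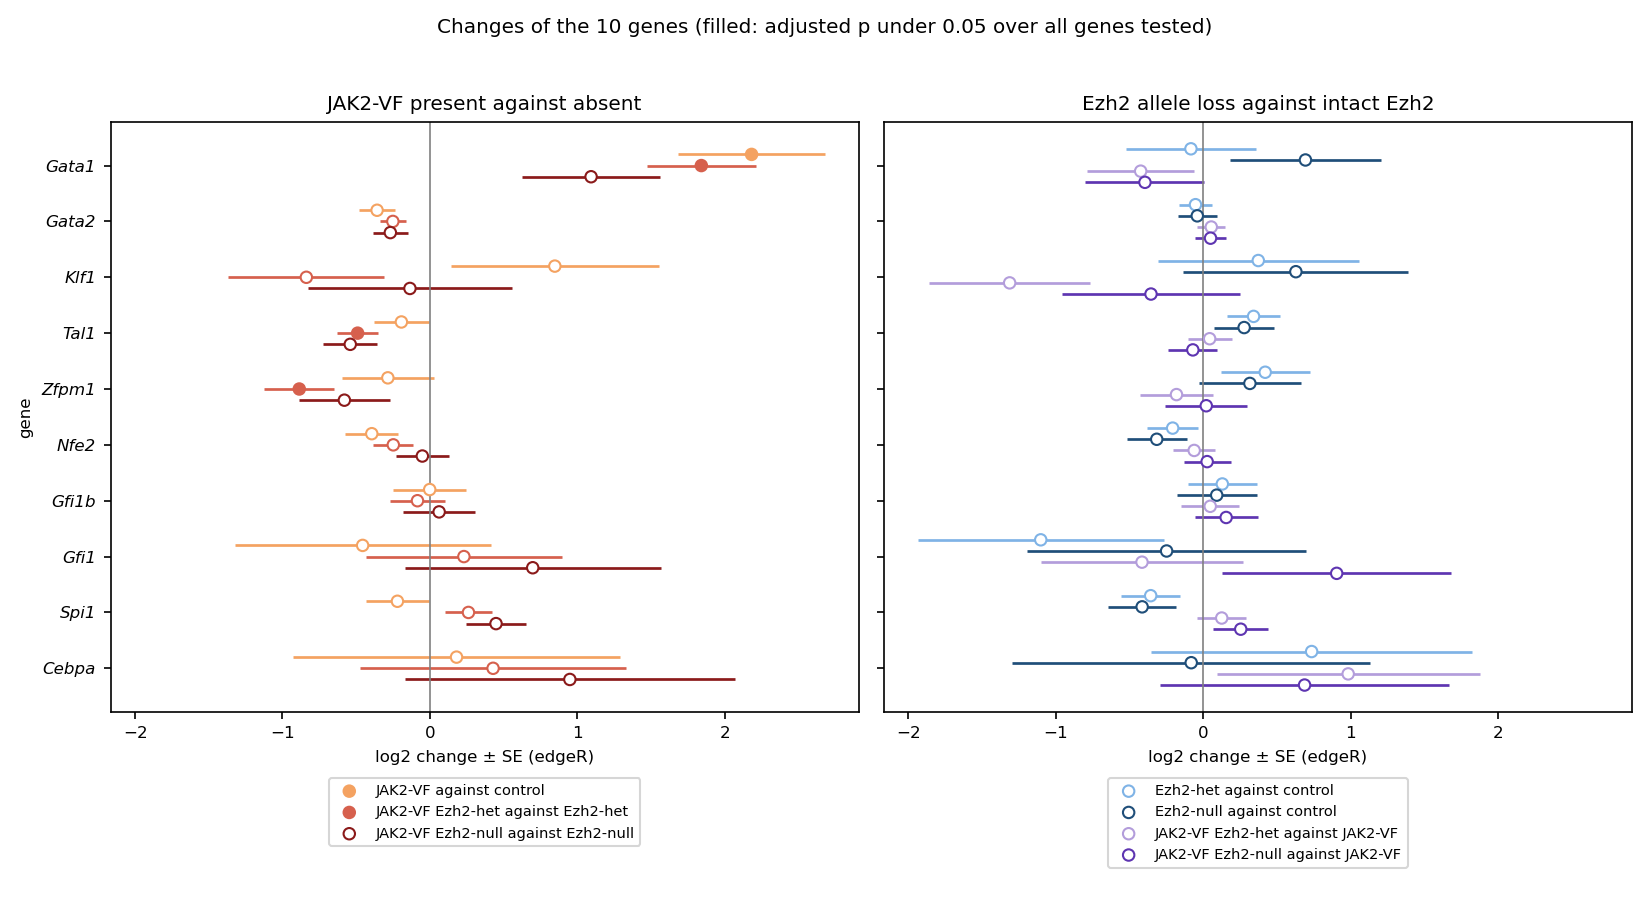
Log2 change ± SE of each gene in the 3 comparisons of JAK2V617F present against absent (left) and the 4 comparisons of Ezh2 allele loss against intact Ezh2 (right); filled points passed an adjusted p under 0.05 in edgeR. Filled points are Gata1 in 2 comparisons and Tal1 and Zfpm1 in JAK2-VF Ezh2-het against Ezh2-het cells; all points on the right are open.

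Gata2, which precedes Gata1 in the haematopoietic hierarchy, stood lower wherever JAK2V617F was present, but no comparison called it. Control libraries had 424, 483, 561 and 567 CPM, and JAK2-VF libraries 316 to 537 CPM with a median of 404. The log2 difference was -0.36 ± 0.12 against control (edgeR adjusted p = 0.0845), -0.25 ± 0.09 in Ezh2-het cells (0.0752) and -0.27 ± 0.12 in Ezh2-null cells (0.208). The first passed the test without the term for sex (-0.41, edgeR adjusted p = 0.0259) or without JAK2-VF batch 2 replicate 4 (-0.42, 0.0394). The second passed with DESeq2 (-0.26, adjusted p = 0.0445) and in 3 of 15 fits with 1 library left out. The balance of the 2 GATA factors was read within each library as the log2 ratio of their CPM, with 1 added to each. Gata1 minus Gata2 averaged -4.75 ± 1.08 in control, -4.99 ± 0.73 in Ezh2-het and -4.47 ± 0.90 in Ezh2-null libraries. With JAK2V617F it averaged -2.59 ± 0.91, -2.95 ± 0.68 and -2.71 ± 0.84 in the same order of Ezh2 genotypes. The highest ratio without JAK2V617F was -3.79, in an Ezh2-null library, and the lowest with it -4.0, in a JAK2-VF Ezh2-het library, so the 2 sets overlapped slightly. Per length too, Gata2 was higher than Gata1 in every library.

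The genes of 2 GATA1 partners, Tal1 and Zfpm1, fell in 1 of the 3 JAK2V617F comparisons. Zfpm1 had 7.14 to 18.1 CPM (median 12.1) in Ezh2-het and 3.999 to 7.37 CPM (median 5.73) in JAK2-VF Ezh2-het libraries, where 7 of 8 lay below every Ezh2-het library. The log2 change was -0.89 ± 0.24 (edgeR adjusted p = 0.0131). Tal1 had 49.1 to 89.9 CPM (median 63.4) and 37.0 to 60.1 CPM (median 46.3) in the same groups, a log2 change of -0.49 ± 0.14 (edgeR adjusted p = 0.0209), with 4 of 8 libraries below every Ezh2-het library. Each call was lost without 1 library: without Ezh2-het batch 1 replicate 3, which had 18.1 CPM of Zfpm1, that change was -0.76 (edgeR adjusted p = 0.0528), and without Ezh2-het batch 2 replicate 3, which had 89.9 CPM of Tal1, that change was -0.37 (0.102). In these 2 libraries the separately counted part of Ezh2 took 0% and 1.77% of the Ezh2 counts, in the same order.

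Both genes were also lower on average in the other JAK2-VF groups, without passing the test. Control libraries had 60.8, 49.8, 56.9 and 52.0 CPM of Tal1, and JAK2-VF libraries 35.8 to 52.6 CPM, 4 of 6 below every control. The fitted log2 difference was -0.19 ± 0.19 (edgeR adjusted p = 0.663). Ezh2-null libraries had 77.4, 60.1, 38.4 and 63.8 CPM of Tal1 and JAK2-VF Ezh2-null libraries 33.7 to 54.3 CPM (-0.54 ± 0.18, edgeR adjusted p = 0.0811). That difference passed with DESeq2 (adjusted p = 0.0494) and, in edgeR, without Ezh2-null batch 2 replicate 2 (-0.68, 0.0299). Zfpm1 had 9.33, 8.03, 8.69 and 7.93 CPM in control libraries and 4.48 to 7.96 CPM in JAK2-VF libraries, 5 of 6 below every control (-0.29 ± 0.31, edgeR adjusted p = 0.712). In JAK2-VF Ezh2-null against Ezh2-null libraries its log2 difference was -0.58 ± 0.31 (edgeR adjusted p = 0.322). Over both sets, 13 of 20 libraries with JAK2V617F lay below every library without it for Zfpm1, and 4 of 20 for Tal1.

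The other subunits of the GATA1 and TAL1 complexes were read from a list of 25 partners and cofactors, of which 24 were tested. Lmo2, the bridging LIM protein, fell in all 3 comparisons. It went from 1068 ± 144 CPM in control to 704 ± 67.5 CPM in JAK2-VF libraries (log2 change -0.59 ± 0.12, edgeR adjusted p = 0.00323), and by 0.59 ± 0.09 and 0.72 ± 0.12 on the log2 scale in Ezh2-het and Ezh2-null cells (edgeR adjusted p = 4.69e-05 and 0.000213). In each comparison every library with JAK2V617F lay below every library of the group without it. Cbfa2t3 fell in all 3 as well, by 0.45 ± 0.10, 0.26 ± 0.08 and 0.45 ± 0.10 (edgeR adjusted p = 0.00823, 0.0261 and 0.00508). Ldb1, the adaptor that joins distant regulatory sites, fell by 0.53 ± 0.13 in Ezh2-het cells (edgeR adjusted p = 0.00586), where Hdac1 rose by 0.35 ± 0.11 (0.0452). The list thus had 0 genes higher and 2 lower in JAK2-VF against control, 1 higher and 3 lower in Ezh2-het and 0 higher and 2 lower in Ezh2-null cells. Its median log2 change was -0.19, -0.12 and -0.29, against -0.03, -0.01 and 0.01 over all genes tested. Of all genes tested, edgeR called 4.22%, 9.05% and 4.84% in the same order, both directions together. By direction the share is given only for Ezh2-het cells, 4.88% higher and 4.18% lower. The same shares apply to the counts of the gene lists below in these 3 comparisons.

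Klf1 did not follow Gata1 across genotypes. Control libraries had 1.14, 3.48, 10.1 and 5.14 CPM, and Ezh2-null libraries 8.71, 10.3, 12.6 and 1.37 CPM. The ranges were 1.42 to 14.3 CPM in Ezh2-het, 4.23 to 19.1 in JAK2-VF, 0.875 to 7.11 in JAK2-VF Ezh2-het and 3.10 to 14.3 CPM in JAK2-VF Ezh2-null libraries, and all groups overlapped. The log2 differences with JAK2V617F were 0.85 ± 0.71 with intact Ezh2, -0.84 ± 0.53 in Ezh2-het and -0.14 ± 0.69 in Ezh2-null cells (edgeR adjusted p = 0.589, 0.373 and 0.951). In JAK2-VF Ezh2-het against JAK2-VF cells Klf1 averaged 3.78 ± 2.15 against 9.30 ± 6.37 CPM, a log2 difference of -1.31 ± 0.55 (edgeR adjusted p = 1.0), with 5 of 8 libraries below every JAK2-VF library.

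Of the 29 erythroid target and marker genes tested, none was higher and Hba-a1, an alpha-globin gene, was lower in JAK2-VF against control cells. In JAK2-VF Ezh2-het against Ezh2-het cells 9 were lower, among them the globin genes Hbb-bs and Hba-a1 and the band 3 anion exchanger gene Slc4a1. There 1 was higher, the tropomodulin gene Tmod1 (log2 change 0.49 ± 0.16, edgeR adjusted p = 0.0481). Transcripts of such red cell genes were present in some libraries and at or near 0 in others. Hba-a1 ranged from 0.362 to 165 CPM in the 15 libraries without JAK2V617F and had 0 counts in 10 of the 20 with it. Slc4a1 had 0 counts in 4 of 15 libraries without JAK2V617F and in 17 of 20 with it. The highest Hba-a1 values without it were in Ezh2-het batch 2 replicate 4 (165 CPM) and batch 1 replicate 1 (134 CPM). With it the highest was in JAK2-VF batch 2 replicate 3 (32.4 CPM). Without the 2 doubted libraries 5 genes were lower and 0 higher. A fit of the 2 groups alone had 3 lower and 1 higher. In fits with 1 library left out 6 to 9 were lower and 0 to 2 higher. None was higher with DESeq2 size factors, with no low-count filter, with the replicate block or in either batch alone. The number lower was 9 with DESeq2 size factors, 8 with no low-count filter and 5 with the replicate block. It was 2 in batch 1 alone and 3 in batch 2 alone. With the DESeq2 Wald test 2 genes were higher and 7 lower. With no term for sex 2 were higher and 9 lower, and with no robust option 0 were higher and 9 lower. Hba-a1 and its near-identical copy, and Hbb-bs and Hbb-bt, may share reads, so their individual values are uncertain.

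In JAK2-VF Ezh2-null against Ezh2-null cells 2 erythroid genes were higher and none was lower. Hbb-bt rose from 29.2 ± 12.98 to 234 ± 109.9 CPM (log2 change 3.24 ± 0.54, edgeR adjusted p = 0.000276) and Rhag, the Rh-associated glycoprotein gene, from 29.9 ± 24.97 to 100 ± 12.3 CPM (1.64 ± 0.33, edgeR adjusted p = 0.00213). All 6 libraries exceeded every Ezh2-null library for both. The other globin genes listed did not rise with Hbb-bt, and neither was called. Hbb-bs had 0.504 to 2.19 CPM in JAK2-VF Ezh2-null and 2.37 to 84.7 CPM in Ezh2-null libraries. Hba-a1 had 0 to 0.292 CPM and 0.362 to 68.7 CPM in the same groups. Hbb-bt also rose in JAK2-VF Ezh2-null against JAK2-VF cells (3.47 ± 0.46, edgeR adjusted p = 5.79e-05), while Gata1 and Klf1 were not called there (-0.40 ± 0.40 and -0.35 ± 0.61, edgeR adjusted p = 0.971 and 0.995). Epor, the erythropoietin receptor gene and a GATA1 target, was called in none of the 3 JAK2V617F comparisons, with 7.08 to 27.7 CPM without and 6.63 to 28.9 CPM with the mutation. The median log2 change of the erythroid list was -0.05, -0.56 and -0.08 with intact, heterozygous and null Ezh2, against -0.03, -0.01 and 0.01 over all genes tested.

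Nfe2, Gfi1b, Gfi1, Spi1 and Cebpa were called in no comparison. Nfe2 had 359, 502, 450.2 and 373 CPM in control and 267 to 551 CPM (median 392) in JAK2-VF libraries, a log2 difference of -0.39 ± 0.18 (edgeR adjusted p = 0.243). Gfi1b was the most even of these genes across genotypes, with group means between 162 and 182 CPM. It ranged from 91.4 to 271 CPM over single libraries, both of them JAK2-VF Ezh2-het libraries. Gfi1, its myeloid paralogue, stayed at 0.0428 to 7.21 CPM. Gfi1b exceeded it within a library by 5.06 to 6.26 as group means of the difference in log2(CPM + 1). With Gfi1 this low, the added 1 makes these differences smaller than those of plain CPM. The highest Gfi1 mean, 4.73 ± 2.17 CPM, was in JAK2-VF Ezh2-null libraries, and the lowest, 1.59 ± 1.26 CPM, in Ezh2-het libraries. Cebpa averaged 1.12 ± 0.311 CPM in control and 2.99 ± 1.75 CPM in JAK2-VF Ezh2-het libraries, with overlapping ranges. The SE of the log2 difference in JAK2-VF against control was 0.87 for Gfi1 and 1.11 for Cebpa, against 0.25 for Gfi1b.

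Spi1 separated by batch more clearly than by genotype. It had 25.3 to 68.2 CPM (median 40.3) in the 14 libraries of batch 1 and 61.3 to 125 CPM (median 85.3) in the 21 of batch 2, a 2.12-fold ratio of medians, and within each of the 6 groups every batch 2 library exceeded every batch 1 library. The same ratio was 1.497 for Nfe2, 1.36 for Gata2 and 0.887 for Gata1. Control libraries of batch 1 had 50.95 and 39.2 CPM of Spi1 and those of batch 2 had 96.7 and 73.3 CPM. The 2 JAK2-VF libraries of batch 1 had 30.1 and 33.9 CPM, the 4 of batch 2 between 73.3 and 119 CPM. With batch as a term the log2 difference was -0.22 ± 0.21 in JAK2-VF against control (edgeR adjusted p = 0.655), 0.26 ± 0.16 in Ezh2-het and 0.45 ± 0.21 in Ezh2-null cells (0.351 and 0.230). The interaction with Ezh2 loss was 0.67 ± 0.31 (edgeR adjusted p = 0.907). The log2 ratio of Gata1 to Spi1 within a library was also taken with 1 added to each CPM. It averaged -1.73 ± 1.49 in control and -0.07 ± 1.497 in JAK2-VF libraries.

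Loss of Ezh2 itself was not accompanied by a called change in any of the 10 genes. The 2 comparisons with control share the 4 control libraries, and the 2 with JAK2-VF share its 6 libraries. edgeR and DESeq2 each called 0 of 10 in Ezh2-null against control, where edgeR called 0.00669% of all genes tested, and 0 of 10 had an unadjusted p under 0.05. The same counts of 0 held for Ezh2-het against control, where 0% of all genes were called, and for JAK2-VF Ezh2-null against JAK2-VF, where 0.475% were. In JAK2-VF Ezh2-het against JAK2-VF cells, with 0% of all genes called, 1 gene (Klf1, above) had an unadjusted p under 0.05. Gata1 differed by 0.69 ± 0.51 on the log2 scale in Ezh2-null against control and by -0.08 ± 0.44 in Ezh2-het against control (edgeR adjusted p = 0.969 and 1.0). The tests of a difference in the Ezh2 effect between cells with and without JAK2V617F called 0 of 10 genes by edgeR and DESeq2 for both Ezh2 genotypes. There 1 gene (Spi1) and 0 genes had an unadjusted p under 0.05, with 0.00669% and 0% of all genes called. The standard errors of these differences, 0.095 to 0.132 on the log2 scale for Gata2 but 0.36 to 0.51 for Gata1 and 0.55 to 0.76 for Klf1, set the size of change that could have been seen.

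Across libraries the genes whose level was most like Gata1 were Ckap2l, Kif22 and Kif15, which encode proteins of the mitotic spindle. Pearson's r of log2(CPM + 1) over the 35 libraries was 0.87, 0.85 and 0.85, and 0.55, 0.54 and 0.66 after group, batch and sex were taken out. These are descriptions; the points share genotype, batch and depth. The list of 15 cell division genes moved with JAK2V617F in the same libraries as Gata1. It had 12 genes higher in JAK2-VF against control, 14 in Ezh2-het and 12 in Ezh2-null cells, and none lower, with median log2 changes of 1.72, 1.72 and 1.86. Cdk1, the mitotic kinase, rose from 27.1 ± 8.38 to 101 ± 32.7 CPM in JAK2-VF against control, and Top2a, a DNA topoisomerase gene of dividing cells, from 94.1 ± 18.9 to 335 ± 124 CPM (edgeR adjusted p = 0.000245 and 0.000332). The mean level of the list was 3.50 to 5.45 on the log2 scale in libraries without and 5.67 to 7.09 in libraries with JAK2V617F, with no overlap. Among the 20 libraries with JAK2V617F, Gata1 followed the list with r = 0.78 (Spearman's rho 0.75; 0.67 without the 2 libraries farthest from the median, 0.76 in batch 1 and 0.73 in batch 2). Among the 15 without it r was 0.34 (rho 0.25; 0.07 without the 2 farthest of them, 0.71 in the 6 libraries of batch 1 and 0.23 in the 9 of batch 2). The difference between the 2 sets was not tested. Whether the share of dividing cells had a part in the Gata1 values was not tested.

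**Figure D3:**
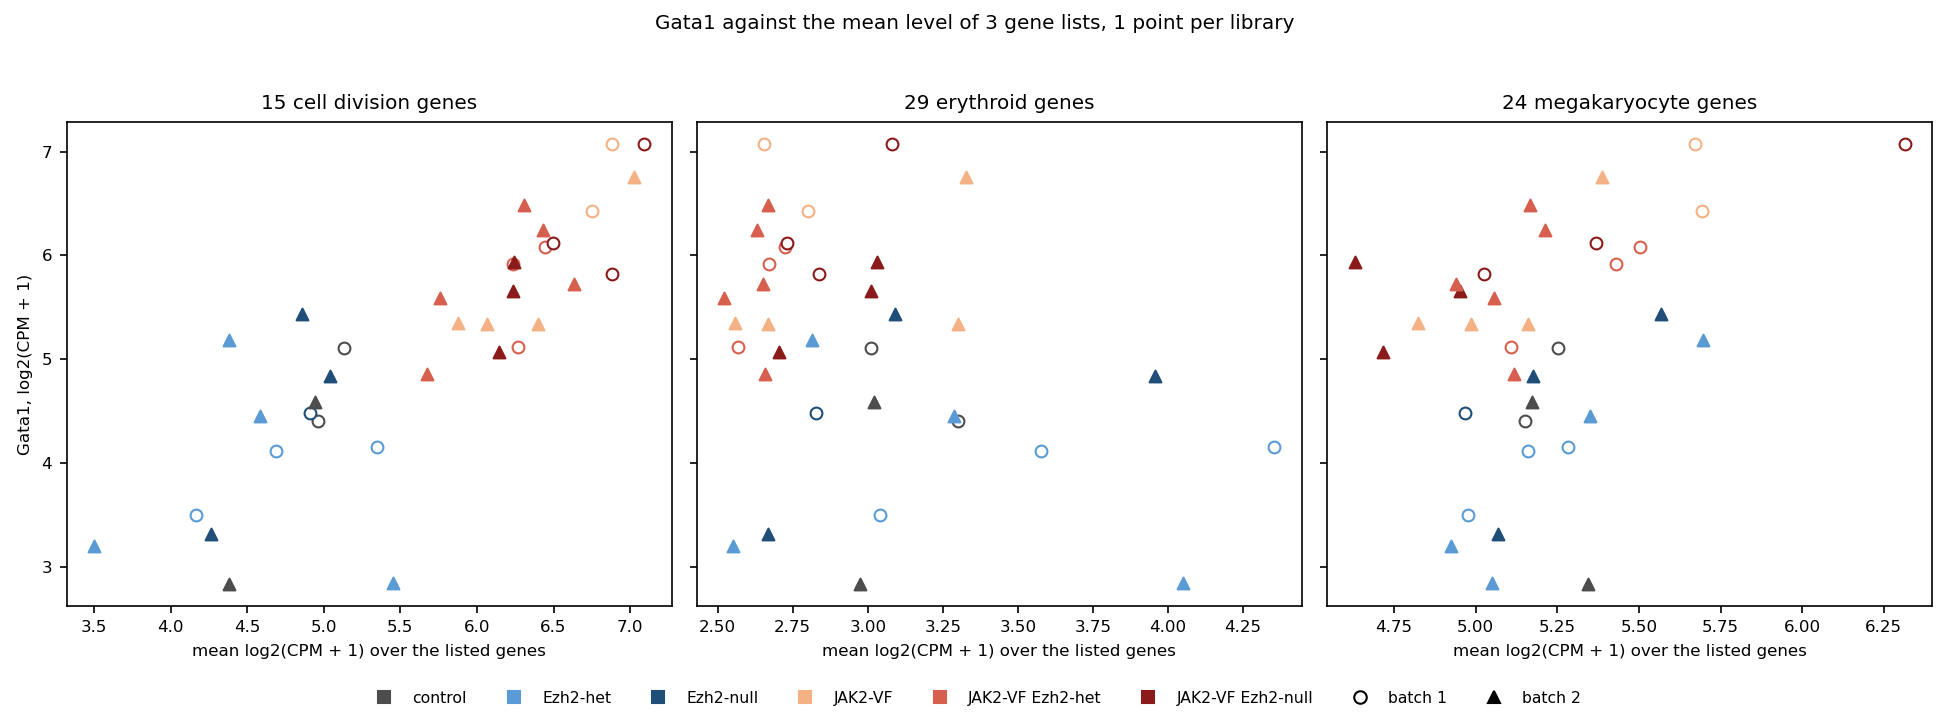
Gata1 (vertical axis, log2(CPM + 1)) against the mean log2(CPM + 1) of 15 cell division, 29 erythroid and 24 megakaryocyte genes in each of the 35 libraries, coloured by genotype and shaped by batch. Libraries with JAK2V617F lie to the upper right for the cell division genes (list level 5.67 or more, Gata1 28.1 CPM or more), whereas the erythroid list spans 2.52 to 4.35 and reaches its highest values in libraries without JAK2V617F.

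With the erythroid list r was -0.003 without and 0.30 with JAK2V617F (Spearman's rho 0.03 and 0.30). Without the 2 farthest libraries r was 0.34 and 0.38. Within batches 1 and 2 it was -0.21 and 0.03 without and 0.58 and 0.32 with JAK2V617F. With the 24 megakaryocyte genes r was 0.58 without and 0.72 with JAK2V617F (Spearman's rho 0.53 and 0.68; r 0.30 and 0.62 without the 2 farthest libraries). The megakaryocyte list had 0 genes higher and 2 lower in JAK2-VF against control, 1 higher and 4 lower in Ezh2-het and 0 higher and 4 lower in Ezh2-null cells. The lower genes included Gng11, a G protein subunit gene, at 142 ± 14.6 CPM in control and 72.02 ± 12.03 CPM in JAK2-VF libraries (log2 change -0.99 ± 0.16, edgeR adjusted p = 0.000245), and Mmrn1 fell in Ezh2-het and Ezh2-null cells (-0.99 ± 0.17 and -1.41 ± 0.22, edgeR adjusted p = 0.00012 and 8.92e-05). Pf4, platelet factor 4, ranged from 15.8 to 333 CPM without and 20.4 to 1038 CPM with JAK2V617F. The highest value was in JAK2-VF Ezh2-null batch 1 replicate 2, which also had the highest Gata1, 134 CPM, and the highest Itga2b, the integrin αIIb gene, at 530.2 CPM.

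Between the 10 genes themselves the largest correlations over the 35 libraries were Tal1 with Zfpm1 (r = 0.66), Nfe2 with Spi1 (0.65) and Gata2 with Nfe2 (0.63). Once group, batch and sex were taken out these became 0.33, 0.25 and 0.23. The pairs that were closest then were Gata1 with Klf1 (0.64, from 0.33), Nfe2 with Gfi1b (0.60, from 0.41) and Gata1 with Gfi1b (0.55, from 0.26). Gata1 and Tal1 ran opposite to each other over all libraries (r = -0.48) and less so after the adjustment (-0.18). Of the nearest neighbours of the other genes, Nfe2 was most like Lyl1, a helix-loop-helix factor related to TAL1 (0.88), Gata2 like Gigyf1 (0.84) and Cdkn1b, the cell cycle inhibitor p27 (0.82), and Spi1 like Xrcc1 (0.89). For Klf1, Gfi1b, Gfi1 and Cebpa the best r was between 0.60 and 0.65.

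**Figure D4:**
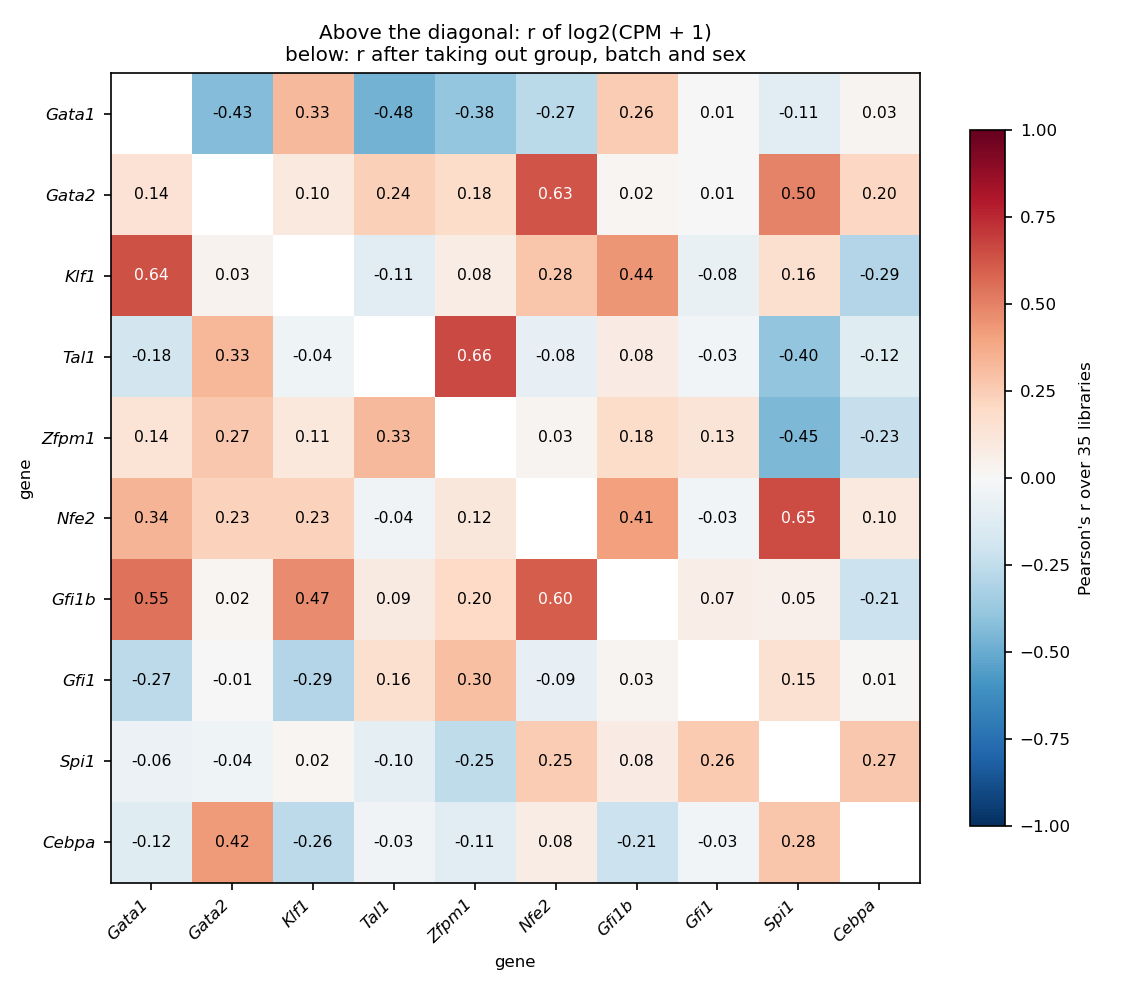
Pearson's r between the 10 genes over 35 libraries, from log2(CPM + 1) above the diagonal and after group, batch and sex were taken out below it. Gata1 with Klf1 goes from 0.33 to 0.64 and Gata2 with Nfe2 from 0.63 to 0.23.

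Spi1 and Cebpa were set beside the 25 neutrophil and monocyte genes, which include their targets. In JAK2-VF against control edgeR and DESeq2 called none of them (1 in edgeR at an unadjusted p under 0.05), with 13 of 25 log2 changes positive and a median of 0.01. In Ezh2-het cells both called none (3 in edgeR at an unadjusted p under 0.05), with 21 of 25 positive and a median of 0.76. In Ezh2-null cells edgeR called Emb alone, higher (0.81 ± 0.17, edgeR adjusted p = 0.00418), with 21 of 25 positive and a median of 0.89. Over all genes tested 47.4%, 49% and 50.7% of the changes were positive in the same order. Over both batches the r of Spi1 with the mean level of these genes was 0.32 without and 0.42 with JAK2V617F. Within batch 2, Spi1 followed it with r = 0.78 in 9 libraries without and 0.46 in 12 libraries with JAK2V617F, and within batch 1 with 0.72 in 6 and -0.41 in 8. Elane, the neutrophil elastase gene, ranged from 1.15 to 716 CPM without and from 38.4 to 1801 CPM with JAK2V617F, and Mpo, the myeloperoxidase gene, from 2.84 to 1281 and from 24.7 to 2628 CPM. The part of these transcripts in the Spi1 and Cebpa values was not tested.

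Of 30 other blood lineage transcription factor genes, 3 were lower and none was higher in JAK2-VF against control: Gata3, a factor of T cells that is also expressed in stem cells (166 ± 7.37 to 109 ± 10.6 CPM, log2 change -0.65 ± 0.15, edgeR adjusted p = 0.0114), Hlf (-0.69 ± 0.18, 0.0216) and Mecom (-0.63 ± 0.17, 0.0293), both factors of stem cell identity. In Ezh2-het cells 7 were lower, among them Gata3, Hlf, Meis1 and Zbtb7a, and in Ezh2-null cells 3, Hlf, Runx2 and Meis1, with none higher in either. The list's median log2 change was -0.15, -0.17 and -0.32 with intact, heterozygous and null Ezh2. Mllt3 and Procr of the 17 stem cell and early progenitor genes fell in all 3 comparisons, and Cd34, a marker of more mature progenitors, rose in 2 of them, from 205 ± 29.7 to 408 ± 99.98 CPM in JAK2-VF against control (log2 change 0.83 ± 0.21, edgeR adjusted p = 0.0192). Of 9 mast cell and basophil genes tested, Il1rl1 was called lower in JAK2-VF against control, where 1 control library had 3.24 CPM and the other 3, like all 6 JAK2-VF libraries, had 0 counts, and none was called in the other two comparisons. Of 9 lymphoid genes tested, Gata3 was called, lower with intact and heterozygous Ezh2, and none with null Ezh2.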

How the data were processed

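RNA-seq was made from 35 LT-HSC libraries of 1000 FACS-sorted cells each, with low-input cDNA amplification, per the labels' protocols. STAR and the mm9 build are named in the submitters' processing notes, with the counter, annotation and strand setting not given in the sources used here. The deposited values are raw counts per gene by Entrez identifier, with gene lengths; 19075 of 19138 identifiers were matched to symbols, and the row for a 178-base part of Ezh2 (at most 0.000935% of a library) was left out of tests. Counts were analysed with edgeR 4.0.16 in R 4.3.3: filterByExpr kept 14945 genes, TMM factors were 0.937 to 1.062, and a robust quasi-likelihood fit over all 35 libraries had terms for group, batch and sex (common biological coefficient of variation 0.554, 27 residual degrees of freedom). P-values were adjusted by Benjamini-Hochberg over all genes, and a gene was called at an adjusted p under 0.05. CPM used TMM-scaled library sizes (plain totals for Xist), and log2 levels a pseudocount of 1. The depth, 13.6 M to 48.6 M counts, limits genes with few counts, such as Cebpa and Gfi1. Alternatives were DESeq2 1.42.0 and its size factors, no low-count filter, no robust option (chosen after seeing the data), no term for sex, a replicate block, the compared groups alone, each batch alone, and leaving out the 2 doubted libraries or each library in turn. The fit was also run on simulated counts with less spread than the common value of these data and with no batch or sex effect. That run cannot show how the fit performs on these libraries. Pairwise relations used pandas 2.3.3 and scipy 1.17.1. The 10 genes were given by name, and they and the gene lists (erythroid, megakaryocyte, neutrophil and monocyte, mast cell, lymphoid, stem cell, cell division, partners, other lineage factors) were chosen with earlier results of these data known. Of each list at most 4 genes called were named per comparison, besides Epor, Pf4, Itga2b, Elane and Mpo, chosen after their values were seen, and the 3 genes most like a member came from 9852 genes with a mean log2 level of at least 3.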

Additional observations from a re-analysis of the deposited data

Results flagged for a closer look

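Within each genotype group the highest and lowest library were compared with the rest by Dixon's test, over 60 groups of values (10 genes in 6 genotypes). In 5 of them 1 library stood apart, and chance gives about 1 in 20. Gata1 in JAK2-VF Ezh2-null batch 1 replicate 2 was 133.7 CPM, against 32.6 to 68.6 CPM in the other libraries of its group. The same library had 11.34 CPM of Zfpm1, against 5.41 to 7.33 CPM. Zfpm1 was also high in Ezh2-null batch 1 replicate 1, the only Ezh2-null library of batch 1, at 14.42 CPM against 8.22 to 9.003 CPM. Gata2 in Ezh2-het batch 2 replicate 3 was 703.3 CPM, against 362 to 501 CPM, and Cebpa in Ezh2-het batch 1 replicate 2 was 8.647 CPM, against 0.0 to 3.04 CPM.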

How the results depend on the processing

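The number of the 10 genes called in JAK2-VF against control was 1, and became 2 without the term for sex, 0 with only the groups compared, 0 in batch 1 alone, 0 in batch 2 alone, and 1 to 2 with 1 library left out. In Ezh2-het cells it was 3, and became 1 with only the groups compared, 1 in batch 1 alone, 0 in batch 2 alone, and 2 to 4 with 1 library left out. In Ezh2-null cells it was 0, and became 1 with DESeq2 and 0 to 1 with 1 library left out. It stayed 0 in the 4 Ezh2 comparisons and both interaction tests under every alternative run. Fits of single batches or of the compared groups have fewer samples. The Gata1 change was between 1.88 and 2.46 with 1 library left out of JAK2-VF against control (edgeR adjusted p = 0.00726 to 0.0381). In Ezh2-het cells it was 1.85 in batch 2 alone (edgeR adjusted p = 0.0821). The Tal1 change there was -0.51 with only the groups compared and -0.40 and -0.56 in batches 1 and 2 alone (edgeR adjusted p = 0.0502, 0.561 and 0.0866), and that of Zfpm1 was -0.91, -1.16 and -0.79 (0.0722, 0.349 and 0.156). Replicate numbers did not pair the libraries: over 69 pairs with the same number in the same batch, the correlation of deviations from group means was -0.177 to 0.077. With the replicate block the Tal1 change was -0.46 (edgeR adjusted p = 0.077). The counts over all genes moved more: 631 in JAK2-VF against control became 83 and 38 in batches 1 and 2 alone, 1003 with DESeq2, and 282, 314 and 399 without control batch 1 replicate 1 and JAK2-VF batch 1 replicates 1 and 2. In Ezh2-het cells 1353 became 835 with only the groups compared and 176 and 636 within batches. In Ezh2-null cells 723 became 421 with the replicate block, 252 with only the groups compared, 3 and 373 within batches, 1117 with DESeq2, and 357 and 450 without Ezh2-null batch 2 replicates 1 and 3. In JAK2-VF Ezh2-null against JAK2-VF 71 became 22, 1 and 22, 193 with DESeq2 and 38 without JAK2-VF batch 1 replicate 1. DESeq2 called 97, 64 and 44 genes in Ezh2-null and Ezh2-het against control and JAK2-VF Ezh2-het against JAK2-VF, where edgeR called 1, 0 and 0, and 92 and 56 genes in the interaction tests, where edgeR called 1 and 0. The cause of these differences was not tested. Of 77 other values of the 10 genes, 46 changed sign under at least 1 alternative.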
